A study of Mus musculus with 24 samples.

Results

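Krüppel-like factors (Klf) are DNA-binding proteins with 3 zinc fingers at the C terminus, which contact GC-rich and CACCC sequences in promoters, and an N-terminal part that differs between members and recruits coactivators or corepressors. Several of them are immediate-early or early genes whose mRNA changes within hours when cells are given serum or growth factors, and the family is known for work in proliferation, differentiation, the endothelial response to flow and metabolism. Of the family, 10 genes were followed here: Klf2, Klf3, Klf4, Klf5, Klf6, Klf7, Klf9, Klf10, Klf13 and Klf15. They were found by the RefSeq transcript that each array probe is named for, which gave 13 probes of 56605 on the array, with 2 probes each for Klf3, Klf7 and Klf10. A probe entered the tests if 2 or more arrays of some group read it well above background, which left 37687 probes, 12 of the 13 among them. The exception was the only Klf15 probe.

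The cells were TM3, a line of mouse Leydig cells, the testosterone-producing cells between the testis tubules. In all groups the cells were detached, washed, put in cuvettes as a suspension in binding buffer and then either sham-exposed (S) or exposed to a nanosecond pulsed electric field (nsPEF, E) of 80 pulses, each 60 ns wide, at 5.5 kV, 14 kV/cm and 26.4 pulses per minute for 180 s. RNA was taken at 0, 4 and 24 h, with 4 biological replicates for each of the 6 groups S0, E0, S4, E4, S24 and E24, and each of the 24 samples had an array of its own. TM3 is a cell line, so the replicates are not different animals. Each time point had 1 of the 3 slides to itself, and on every slide sham samples filled the first row of arrays and nsPEF samples the second. A difference between times therefore cannot be told apart from one between slides, nor a treatment difference from one between rows. Of the Leydig cell markers with a probe, 4 of 9 (Star, Cyp17a1, Nr5a1 and Gata4) were well above background on all arrays, and 5 (Cyp11a1, Hsd3b1, Hsd3b6, Lhcgr and Hsd17b3) were not on any. Of 12 markers of other testis cells, 5 (Sox9, Wt1, Csf1r, Pecam1 and Acta2) were well above background on all arrays and Cdh5, an endothelial marker, on none. The summed linear signal of these 12 markers, with the 75th percentile of each array set to 1, was 65.7 to 70.2 in S0, 67.0 to 85.2 in S4 and 56.7 to 61.1 in S24, and in nsPEF cells 64.8 to 67.4, 69.8 to 78.3 and 56.5 to 58.3 at the same times. That of the Leydig markers was 4.52 to 6.46 in S0, 3.75 to 4.77 in S4, 2.78 to 4.08 in S24, 3.73 to 5.50 in E0, 4.04 to 4.41 in E4 and 3.15 to 4.23 in E24. The sums of the other testis cell markers at 24 h lay below those at 0 h in both arms and those of the Leydig markers did so in sham, beside the falls of the Klf genes. Neither these sums nor the single markers below were recomputed with arrays scaled on spike-in RNA. That scaling shifted the median of all tested probes up by 0.70 in sham and 0.48 in nsPEF between 0 h and 24 h, so these falls rest on the scaling. Single markers moved in different directions. From 0 h to 24 h in sham Sox9 fell by 2.83 on the log2 scale, Ddx4 by 0.96 and Csf1r by 0.52, and Pecam1 rose by 0.64 (limma adjusted p = 1.03e-08, 0.000277, 0.000616 and 0.000219). Against sham, nsPEF cells had more Myh11 at 0 h (2.28 ± 0.40, adjusted p = 0.0355) and 24 h (2.09 ± 0.40, adjusted p = 0.00826), less Csf1r at 0 h (-0.57 ± 0.11, adjusted p = 0.0355) and less Ddx4 at 24 h (at least 1.47-fold, adjusted p = 0.03). Myh11 and Ddx4 were not well above background on any array of E4, nor Ddx4 on any of E24. These 3 also differed in the mean over all times (adjusted p = 0.00237, 0.048 and 0.013). The part of these markers in the results was not tested.

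The part of the promoter upstream of the annotated start is shown for Klf4, Klf6 and Klf2, which had the largest falls by 24 h in sham among the 8 members matched in RefSeq's promoter table (GRCm38.p6; Klf2, Klf3, Klf4, Klf6, Klf7, Klf9, Klf13 and Klf15). Each sequence is the 200 bases before the start, 5′ to 3′ on the strand of the gene, and capitals mark a MEF2 site, to which the MEF2 factors bind, or the E box CACGTG.
Klf4, chr4:55532476-55532675, minus strand: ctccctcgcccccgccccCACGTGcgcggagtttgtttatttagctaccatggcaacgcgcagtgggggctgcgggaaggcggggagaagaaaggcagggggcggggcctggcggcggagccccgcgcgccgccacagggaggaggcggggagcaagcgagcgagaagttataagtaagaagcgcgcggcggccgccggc
Klf6, chr13:5861289-5861488, plus strand: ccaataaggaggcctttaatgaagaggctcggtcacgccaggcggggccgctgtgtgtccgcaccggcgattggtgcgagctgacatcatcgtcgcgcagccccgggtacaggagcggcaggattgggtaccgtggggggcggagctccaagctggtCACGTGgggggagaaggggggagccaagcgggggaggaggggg
Klf2, chr8:72318862-72319061, plus strand: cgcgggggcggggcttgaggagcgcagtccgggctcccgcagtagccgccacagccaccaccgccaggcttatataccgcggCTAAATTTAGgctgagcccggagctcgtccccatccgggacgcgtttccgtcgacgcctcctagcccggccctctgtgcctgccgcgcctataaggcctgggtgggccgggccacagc
Over the 250 bases before the start, on both strands, the MEF2 site was found in Klf2 alone of the 8 members, 118 bases before the start, and in 0.508% of all 32851 promoters of the table. The E box CACGTG was found in Klf4, Klf6 and Klf15 and in 6.02% of all promoters. The GC box GGGCGG, a sequence that Klf and Sp proteins themselves bind, was found in 7 of the 8 members (all but Klf9) and in 32.7% of all promoters. CACCC was found in 6 of the 8 (all but Klf4 and Klf6) and in 52.0% of all. The CArG box, TGACGTCA (the cyclic AMP response element) and TATAAA were found in 0 of the 8 members and in 1.47%, 1.55% and 12.4% of all promoters. The 8 windows held 59.2% to 78.4% G and C. A match describes the letters only.

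The first question was how the Klf mRNAs moved over time after the preparation and treatment, in sham and in nsPEF-exposed cells. A level is the log2 processed signal after subtraction of the array's own 75th percentile, so that 0 is that percentile, and levels are compared within a probe and not between probes. Klf5 rose and came back, Klf4 fell at both steps, and Klf6 and probe 1 of Klf10 held most of their level to 4 h and fell afterwards. From 0 h to 4 h in sham, 3 of the 12 probes rose and 8 fell at a limma adjusted p under 0.05, where 29.4% of all tested probes rose and 29.7% fell. From 0 h to 24 h in sham, 1 rose and 11 fell, against 16.9% and 19.7% of all tested probes. In nsPEF cells 3 rose and 6 fell by 4 h (33.5% and 27.8% of all), and 1 rose and 11 fell by 24 h (23.9% and 18.3% of all). From 4 h to 24 h 1 rose and 10 fell in sham (27.8% and 29.9% of all), and 1 rose and 11 fell in nsPEF cells (27.5% and 29.0% of all). Klf10 probe 2 is counted among the falls of every step. It passed the filter only through the 0 h arrays, so its falls from 0 h were favoured in advance. From 4 h to 24 h it was below background at both times. The count of falls at 24 h rests on the scaling: with arrays scaled on spike-in RNA, which shifted the median of all tested probes by 0.70 in sham and 0.48 in nsPEF between 0 h and 24 h, 4 rose and 4 fell in sham and 2 rose and 5 fell in nsPEF. From 4 h to 24 h the shift was 0.65 in sham and 0.40 in nsPEF. There Klf7 probe 1, Klf9 and Klf13 rose in sham, and both Klf3 probes and Klf7 probe 2 no longer passed. In nsPEF Klf7 probe 1 and Klf13 rose, and Klf3 probe 2, Klf7 probe 2 and Klf9 no longer passed. The other falls of this step still passed.

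**Figure D1:**
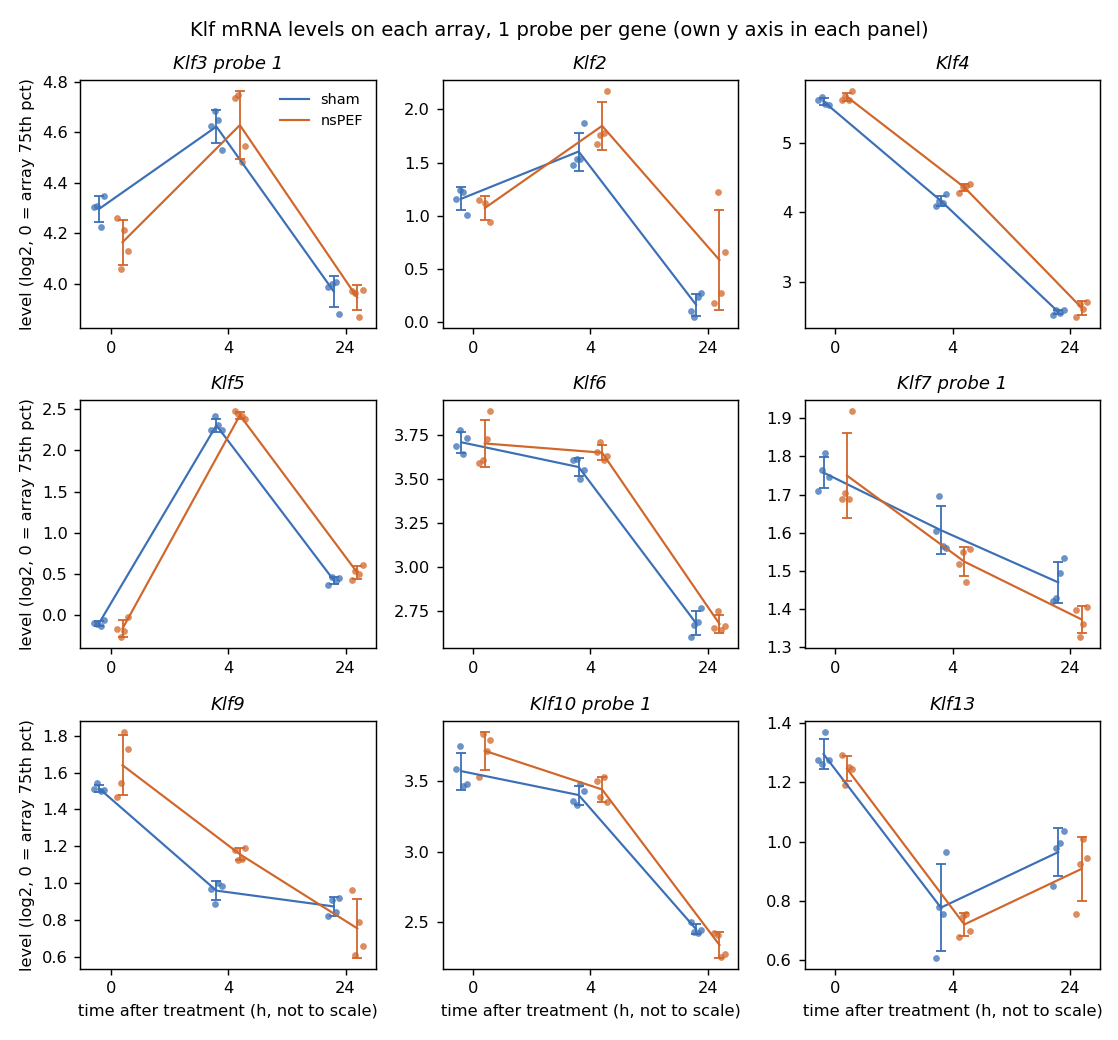
Level of each tested Klf gene on every array, by its brightest probe. The vertical axis is the log2 level, with 0 at the array's 75th percentile (own range in each panel), the horizontal axis is the time in h (not to scale), points are arrays, lines join group means and bars are the SD. Klf5 peaks at 4 h, Klf4 falls at both steps, and Klf2 in nsPEF cells at 24 h has the widest spread (SD 0.47).

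Klf4, one of the reprogramming factors and known to slow the cell cycle, had the largest fall among the probes measured at all times. Its sham levels were 5.61, 5.65, 5.55 and 5.54 (S0), 4.10, 4.17, 4.14 and 4.27 (S4), and 2.54, 2.60, 2.57 and 2.61 (S24). In nsPEF cells they were 5.61, 5.66, 5.60 and 5.74 (E0), 4.28, 4.37, 4.38 and 4.41 (E4), and 2.51, 2.70, 2.61 and 2.72 (E24). No 2 time points overlapped in either arm. The sham difference was -1.42 ± 0.05 (SE) from 0 h to 4 h, -1.59 ± 0.05 from 4 h to 24 h and -3.01 ± 0.05 over the whole day, an 8.05-fold fall (adjusted p = 2.18e-19). In nsPEF cells the fall over the day was 8.10-fold (-3.02 ± 0.05, adjusted p = 2.05e-19). With spike-in scaling the sham fall was the smallest of all alternatives, at -2.31, and it stayed past the threshold under all 10 alternatives and in all 28 fits that left out 1 array or 1 replicate number.

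Klf5, an activator that promotes proliferation, moved the other way. Its sham levels were -0.09, -0.11, -0.14 and -0.06 (S0), 2.24, 2.42, 2.31 and 2.24 (S4), and 0.37, 0.46, 0.42 and 0.45 (S24). The nsPEF levels were -0.17, -0.27, -0.19 and -0.02 (E0), 2.47, 2.44, 2.41 and 2.38 (E4), and 0.42, 0.53, 0.50 and 0.61 (E24). All arrays at 4 h lay above all arrays at the other times, and those at 24 h stayed above those at 0 h. Klf5 was 5.29-fold higher at 4 h than at 0 h in sham (2.40 ± 0.05, adjusted p = 2.99e-18) and 6.02-fold higher in nsPEF cells (2.59 ± 0.05, adjusted p = 9.11e-19). By 24 h it was 1.44-fold (sham, adjusted p = 2.06e-07) and 1.60-fold (nsPEF, adjusted p = 4.3e-09) above 0 h, differences of 0.52 and 0.68 that were 1.22 and 1.16 with spike-in scaling. It was the only member higher at 24 h than at 0 h at an adjusted p under 0.05, except with spike-in scaling, where Klf3 probe 1, Klf7 probe 1 and Klf13 were higher too in sham and Klf3 probe 1 in nsPEF.

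Klf2, the flow-responsive factor of endothelium and of resting T cells, had 1 spot near the edge of the array (row 2 of 384), and that spot was marked as not usable on 1 array (E0 replicate 2), which left 23. Its sham levels were 1.16, 1.25, 1.23 and 1.01 (S0), 1.48, 1.53, 1.54 and 1.87 (S4), and 0.10, 0.05, 0.24 and 0.27 (S24). The nsPEF levels were 1.15, 1.12 and 0.95 (E0), 1.68, 1.76, 1.77 and 2.17 (E4), and 0.19, 1.22, 0.27 and 0.66 (E24). Klf2 was highest at 4 h in both arms, and at 24 h the nsPEF samples spread over the range from the sham level at that time to the level at 0 h. The 4 h rise was 1.36-fold in sham (0.44 ± 0.17, adjusted p = 0.0287) and 1.71-fold in nsPEF (0.77 ± 0.18, adjusted p = 0.00106). The fall from 4 h to 24 h was 2.71-fold in sham (adjusted p = 4.44e-07) and 2.39-fold in nsPEF (adjusted p = 2.58e-06). At 24 h sham cells were 1.99-fold below 0 h (adjusted p = 0.000117), which did not pass with spike-in scaling (-0.30, adjusted p = 0.0683). The sham rise did not pass without S0 replicate 1, S0 replicate 4 or S4 replicate 4 (adjusted p 0.0506 to 0.0967, difference 0.36 to 0.44), nor under 4 of 10 alternatives (quantile normalisation, the percentile over probes well above background throughout, marked spots kept and the deposited values, adjusted p 0.0568 to 0.0982). The difference of -0.49 ± 0.18 between 0 h and 24 h in nsPEF (adjusted p = 0.0367) did not pass without E0 replicate 1 or 3 or E24 replicate 1 or 3 (0.0934 to 0.117, difference -0.46 to -0.35), nor under 3 of 10 alternatives, and was -0.020 with spike-in scaling (adjusted p = 0.916).

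Klf6, an activator known as an early-response gene, and Klf7, a close relative, fell by 24 h. Klf6 levels were 3.69, 3.78, 3.64 and 3.73 in S0, 3.61, 3.61, 3.50 and 3.55 in S4 and 2.60, 2.67, 2.69 and 2.77 in S24. In nsPEF cells they were 3.59, 3.61, 3.73 and 3.89 (E0), 3.65, 3.71, 3.61 and 3.63 (E4), and 2.65, 2.75, 2.64 and 2.67 (E24). The arrays at 24 h lay below all others in both arms, and those at 0 h and 4 h overlapped in nsPEF cells. The fall over the day was 2.04-fold in sham (-1.03 ± 0.06, adjusted p = 4.23e-11) and 2.04-fold in nsPEF (-1.03 ± 0.06, adjusted p = 3.66e-11). With spike-in scaling it was -0.33 in sham (adjusted p = 0.00105) and -0.55 in nsPEF (adjusted p = 7.59e-06). The sham difference of -0.14 ± 0.06 at 4 h (adjusted p = 0.0409) did not pass without S0 replicate 1, 2 or 4 or S4 replicate 3 or 4 (adjusted p 0.0563 to 0.114, difference -0.15 to -0.12), nor under 5 of 10 alternatives (spike-in, normexp, no filter, marked spots kept and the deposited values, adjusted p 0.0527 to 0.338). Klf7 probe 1 ranged from 1.71 to 1.81 in S0, 1.56 to 1.70 in S4 and 1.42 to 1.53 in S24, and from 1.69 to 1.92, 1.47 to 1.56 and 1.33 to 1.41 in nsPEF cells. Its arrays fell at each step without overlap, by 1.22-fold in all over the day in sham (adjusted p = 0.000165) and 1.30-fold in nsPEF (adjusted p = 6.77e-06). The sham step from 4 h to 24 h (-0.14 ± 0.05, adjusted p = 0.0268) did not pass without S4 replicate 2 or S24 replicate 1 or 2 (0.071 to 0.101, difference -0.12 to -0.11), and lost its call or turned sign under 6 of 11 alternatives. The nsPEF step from 4 h to 24 h did so under 4 of 11. The fall from 0 h to 4 h lost its call under 3 of 11 in sham (adjusted p 0.066 to 0.568) and 2 of 11 in nsPEF (0.129 and 0.396). With spike-in scaling the probe was higher at 24 h than at 0 h in sham (0.41, adjusted p = 0.000117) and differed by 0.10 in nsPEF (adjusted p = 0.268). Klf7 probe 2, a dimmer probe for the same transcript, was lower at 24 h than at 0 h too, by -0.42 ± 0.14 in sham (adjusted p = 0.0272) and -0.37 ± 0.14 in nsPEF (adjusted p = 0.0445), but differed by 0.03 ± 0.14 at 4 h in sham (adjusted p = 0.876). Its sham call at 24 h did not pass without S0 replicate 1, 3 or 4 or S24 replicate 2 or 3 (adjusted p 0.0513 to 0.0602, difference -0.42 to -0.40), and its nsPEF call did not pass without any 1 of 15 arrays (0.0503 to 0.157, difference -0.38 to -0.27), which were the 4 of S0, the 4 of S24, S4 replicates 1 and 2, E0 replicates 3 and 4 and E24 replicates 2, 3 and 4. With spike-in scaling these differences of probe 2 turned to 0.28 (adjusted p = 0.133) and 0.11 (adjusted p = 0.564).

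Klf3, a repressor that recruits the corepressor CtBP, rose at 4 h by probe 1, from 4.31, 4.31, 4.23 and 4.35 in S0 to 4.62, 4.69, 4.65 and 4.53 in S4, and was 3.99, 4.00, 4.01 and 3.88 in S24. In nsPEF cells the levels were 4.26, 4.06, 4.21 and 4.13 (E0), 4.74, 4.75, 4.48 and 4.54 (E4) and 3.97, 3.96, 3.87 and 3.98 (E24). The arrays at 4 h lay above, and those at 24 h below, those at 0 h in both arms. The rise was 1.25-fold in sham (0.33 ± 0.06, adjusted p = 0.000114) and 1.38-fold in nsPEF (0.46 ± 0.06, adjusted p = 1.5e-06). Klf3 probe 2, for the same transcript, went the other way at 4 h in sham, by -0.20 ± 0.08 (adjusted p = 0.0471), and by 0.07 ± 0.08 in nsPEF (adjusted p = 0.495), so the 2 probes disagreed. With the mean of both probes the 4 h difference was 0.06 in sham (adjusted p = 0.418) and 0.27 in nsPEF (adjusted p = 0.00138). The probe 2 call was lost under 6 of 10 alternatives (adjusted p 0.0524 to 0.201), the replicate block among them (adjusted p = 0.0612), and without any 1 of 14 arrays (adjusted p 0.0502 to 0.162, difference -0.20 to -0.15): S0 replicates 1, 3 and 4, E0 replicates 3 and 4, S4 replicates 1 and 4, the 4 of S24 and E24 replicates 1, 2 and 3. Both probes fell from 4 h to 24 h in sham, by 1.57-fold (adjusted p = 1.45e-08) and 1.52-fold (adjusted p = 3.17e-06). With spike-in scaling neither call held (adjusted p = 0.996 and 0.664), and at 24 h probe 1 was above 0 h, by 0.37 in sham and 0.26 in nsPEF (adjusted p = 0.00059 and 0.0113). Over the 24 arrays the 2 probes had a correlation of r = 0.75, as a description.

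Klf9, Klf10 and Klf13 bind the Sin3 corepressor, and Klf10 is known as a TGF-beta early gene. Klf9, a thyroid and glucocorticoid hormone target, was 1.51, 1.54, 1.50 and 1.51 in S0, 0.97, 0.89, 1.00 and 0.98 in S4, and 0.82, 0.91, 0.84 and 0.92 in S24. In nsPEF cells it was 1.47, 1.54, 1.82 and 1.73 (E0), 1.18, 1.13, 1.13 and 1.19 (E4), and 0.96, 0.61, 0.79 and 0.66 (E24). The fall at 4 h was 1.47-fold in sham (-0.56 ± 0.07, adjusted p = 1.15e-06) and 1.40-fold in nsPEF (-0.48 ± 0.07, adjusted p = 7.07e-06). From 4 h to 24 h the difference was -0.09 ± 0.07 in sham (adjusted p = 0.328), where the arrays overlapped, and -0.40 ± 0.07 in nsPEF (adjusted p = 7.37e-05), and the difference between these differences was -0.32 ± 0.10 (adjusted p = 0.155). With spike-in scaling these steps were 0.57 in sham (adjusted p = 9.11e-05) and -0.0072 in nsPEF (adjusted p = 0.958). Klf13 was lowest at 4 h, with 1.28, 1.26, 1.37 and 1.27 in S0, 0.61, 0.78, 0.76 and 0.96 in S4, and 0.85, 0.98, 1.00 and 1.04 in S24. It fell 1.43-fold by 4 h in sham (adjusted p = 7.11e-07) and 1.44-fold in nsPEF (adjusted p = 5.83e-07) and was the 1 probe that rose from 4 h to 24 h, by 0.19 ± 0.06 in each arm (adjusted p = 0.0182 and 0.0184). That rise did not pass without S4 replicate 1 or S24 replicate 4 in sham (adjusted p 0.0568 and 0.0865, difference 0.13 to 0.16), nor without E24 replicate 3 in nsPEF (0.0681, difference 0.15), nor with normexp in either arm (adjusted p = 0.0819 and 0.06). With spike-in scaling it was 0.84 in sham and 0.58 in nsPEF. Klf13 was then not alone, as Klf7 probe 1 rose too in both arms (0.51 and 0.24) and Klf9 in sham.

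**Figure D2:**
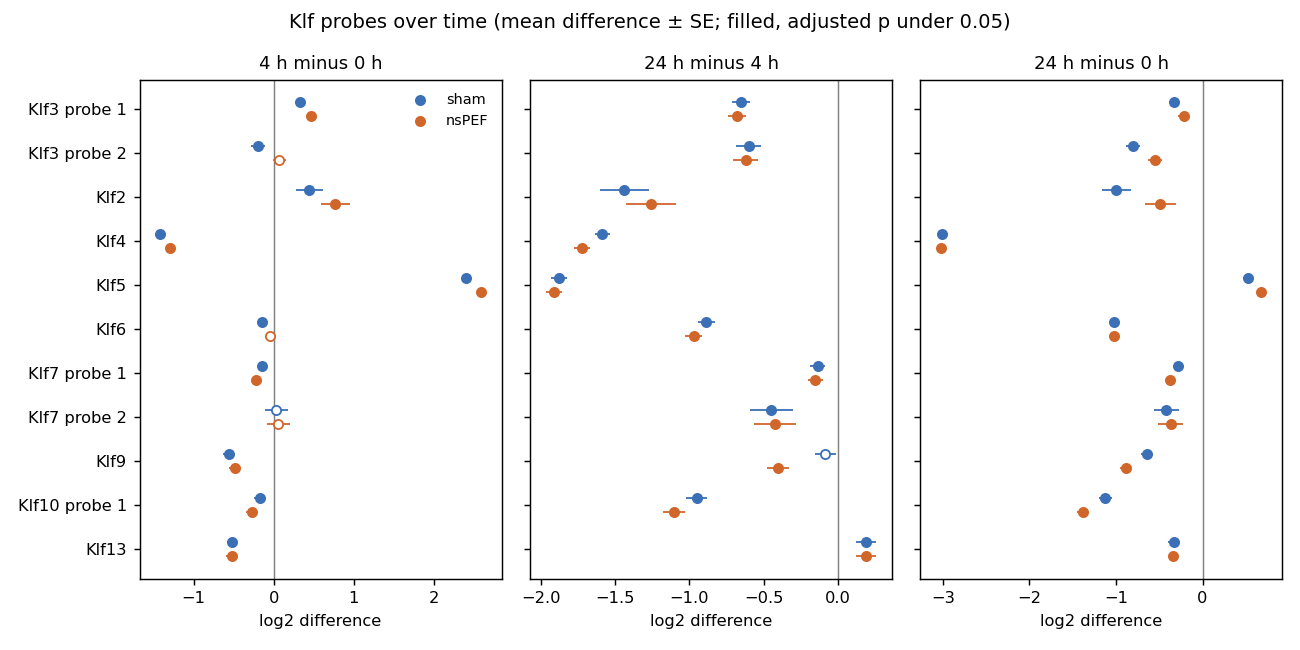
Differences between time points within sham and within nsPEF cells for 11 of the tested Klf probes. Points are the fitted log2 differences, bars are the SE (most are shorter than the point), filled points have an adjusted p under 0.05, and each panel has its own horizontal range. At 4 h Klf5 stands at 2.40 in sham and 2.59 in nsPEF and Klf4 at -1.42 and -1.29. Klf10 probe 2 is left out because it was not well above background at 4 h and 24 h.

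Klf10 was measured by 2 probes that are named for different transcripts. Probe 1 was 3.59, 3.75, 3.47 and 3.48 in S0, 3.36, 3.34, 3.49 and 3.43 in S4, and 2.50, 2.43, 2.43 and 2.44 in S24. In nsPEF cells it was 3.53, 3.83, 3.71 and 3.79 (E0), 3.50, 3.39, 3.53 and 3.35 (E4), and 2.42, 2.41, 2.25 and 2.27 (E24). It fell mostly after 4 h, and over the day by 2.18-fold in sham (-1.12 ± 0.07, adjusted p = 2.89e-10) and 2.60-fold in nsPEF (-1.38 ± 0.07, adjusted p = 1.17e-11). With spike-in scaling these falls were -0.43 and -0.90 (adjusted p = 0.000605 and 1.66e-07). At 4 h the sham arrays overlapped those at 0 h, and the difference of -0.17 ± 0.07 (adjusted p = 0.0476) did not pass under 6 of 11 alternatives (adjusted p 0.0533 to 0.299), the replicate block among them (adjusted p = 0.0607), nor without any 1 of 15 arrays (adjusted p 0.0502 to 0.198, difference -0.18 to -0.11), which were S0 replicates 1 and 2, E0 replicates 3 and 4, S4 replicates 1, 2 and 4, E4 replicates 1 and 2, the 4 of S24 and E24 replicates 2 and 4. Probe 2 was well above background on the 8 arrays at 0 h and on none later. The probe entered the tests only through those arrays, so a fall from 0 h was favoured by the filter. No adjusted p is therefore given for that fall. Probe 2 was -2.02, -1.95, -1.85 and -1.89 in S0 and -1.75, -1.22, -1.32 and -1.02 in E0. Against the lowest signal that was well above background on each later array, it was at least 10.1-fold lower at 4 h and at least 11.6-fold lower at 24 h in sham, and at least 10.3-fold and 12.2-fold lower in nsPEF cells. Probe 2 was thus lost by 4 h, while most of the fall of probe 1 came after 4 h. Both probes were named for Klf10 transcripts and which exons they cover was not examined.

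**Figure D3:**
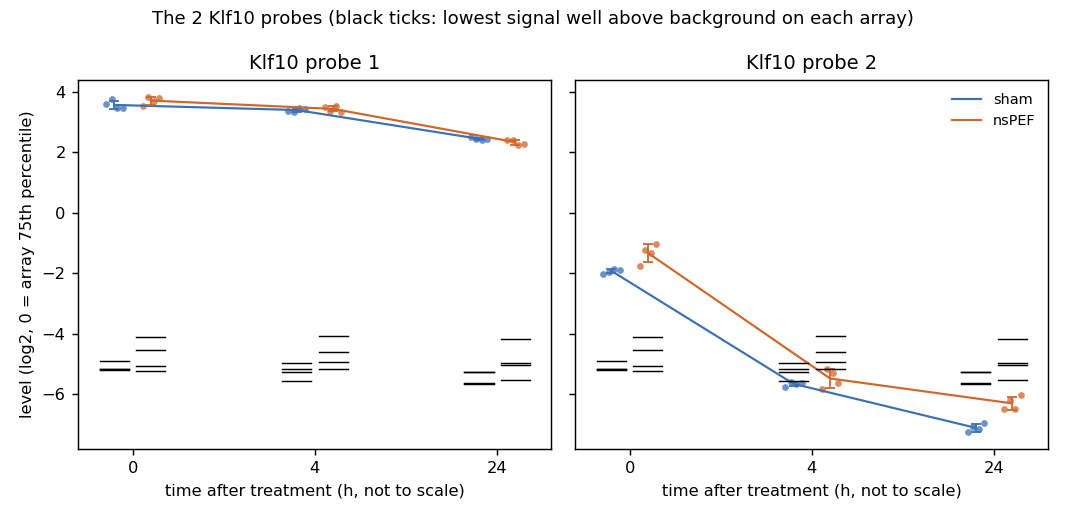
Levels of the 2 Klf10 probes on each array over time, on the same log2 scale as the other levels, with group means and SD. Black ticks mark the lowest signal called well above background on each array of the group. Probe 2 lies above these ticks at 0 h only, while probe 1 stays above 2 throughout.

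Klf15, a regulator of amino acid and glucose metabolism that is high in liver and muscle, was below that limit on all 24 arrays. Its measured values ran from -7.42 to -5.80 and no difference is given. This is what its 1 probe on this array could show.

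Among themselves, the main probes of Klf6 and Klf10 had the most alike course over the 24 arrays (r = 0.975), followed by Klf4 and Klf10 (0.940) and Klf4 and Klf6 (0.921). Klf5 and Klf13 were opposite (r = -0.840). These correlations across arrays follow the differences between times, and arrays of a time share a slide. Outside the Klf and Sp families, the 2 genes most like each member over the arrays were Trib1 (r = 0.994) and Rhob (0.992) for Klf4, Purb (0.998) and Tnfrsf4 (0.998) for Klf5, Ier5 (0.991) and Gadd45g (0.988) for Klf6, and Tmco4 (0.980) and Ccn1 (0.979) for Klf10. For the other tested members they were Ppp4r2 (0.981) and Amd2 (0.980) for Klf3, Elovl6 (0.966) and Zfp703 (0.956) for Klf2 over 23 arrays, Cyp2s1 (0.942) and Fkbp7 (0.941) for Klf7, Tmem88 (0.961) and Egr2 (0.955) for Klf9, and Rsf1 (0.965) and Il17rc (0.965) for Klf13.

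The second question was whether nsPEF changed the Klf mRNAs. At 0 h, 0 of the 12 probes passed in either direction (0.0716% of all tested probes were higher and 0.0557% lower in nsPEF). An unadjusted limma p under 0.05 was found for 3 of the 12 and for 3769 of all 37687 tested probes. At 4 h, 1 was higher and 0 lower (1.71% and 1.60% of all), and 3 of the 12 and 7916 of all had an unadjusted p under 0.05. With spike-in scaling, which shifted the median of all tested probes by 0.19 at this time, 5 were higher (Klf2, Klf4, Klf5, Klf6 and Klf9). At 24 h, 1 was higher and 0 lower (2.64% and 2.18% of all), and 2 of the 12 and 8310 of all had an unadjusted p under 0.05. The mean over the 3 times was higher for 2 probes and lower for 0 (4.40% and 4.44% of all), namely Klf4 and Klf10 probe 2. For Klf10 probe 2 the mean takes in 4 h and 24 h, when it was below background, and the call was lost with quantile normalisation (0.14, adjusted p = 0.245). Klf3 probe 2 (-0.15 ± 0.05, adjusted p = 0.058) was lower with normexp, no filter, marked spots kept or the deposited values (adjusted p 0.0242 to 0.0447) and without E0 replicate 1, S4 replicate 1 or E4 replicate 1 or 2 (-0.17 to -0.16, adjusted p 0.0255 to 0.0494). Klf3 probe 1 was lower with normexp (-0.12, adjusted p = 0.0446) and Klf7 probe 1 without E0 replicate 4 (-0.08, adjusted p = 0.0457). With spike-in scaling, which shifted the median of all tested probes by 0.09 here, Klf2 (0.29, adjusted p = 0.0341) and Klf5 (0.14, adjusted p = 0.038) were higher. Klf10 was higher by the mean of its 2 probes (0.28, adjusted p = 0.00327), of which probe 2 was below background after 0 h. The interaction of time and treatment passed for 0 of the 12 probes (0.377% of all), with adjusted p from 0.195 to 0.998.

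The gene that passed at 4 h was Klf4. The 4 nsPEF arrays, from 4.28 to 4.41, lay above the 4 sham arrays, from 4.10 to 4.27. The difference was 0.19 ± 0.05, or 1.14-fold (adjusted p = 0.0442). It kept its direction under all 10 alternatives, from 0.16 to 0.38, and did not pass with marked spots kept (adjusted p = 0.0656), with the deposited values (0.0655) or centred by row on the array (0.0646). Nor did it pass without any 1 of 15 arrays, at adjusted p from 0.0503 to 0.118 and differences from 0.17 to 0.19. These were S0 replicates 1, 3 and 4, E0 replicate 1, S4 replicates 1, 2 and 3, E4 replicates 2, 3 and 4, the 4 of S24 and E24 replicate 3. Klf4 differed by 0.07 ± 0.05 at 0 h (adjusted p = 0.745) and by 0.06 ± 0.05 at 24 h (adjusted p = 0.537), where the groups overlapped, and the difference at 4 h was not distinguishable from that at 0 h (0.13 ± 0.07, adjusted p = 0.602). Its mean over the times was 0.11 ± 0.03 higher in nsPEF (adjusted p = 0.033), and this did not pass with marked spots kept or the deposited values (0.0731 and 0.0736), nor without any 1 of 11 arrays (0.0507 to 0.0583, difference 0.10), S0 replicate 4, E0 replicates 2 and 4, S4 replicates 1 and 3, E4 replicates 3 and 4, S24 replicates 1 and 3 and E24 replicates 2 and 4.

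The probe that passed at 24 h was Klf10 probe 2, which no array of either group read well above background at that time, so no fold is given. Its measured values were -7.26 to -6.97 in S24 and -6.51 to -6.05 in E24 (adjusted p = 0.0049), and it did not pass with quantile normalisation (0.03, adjusted p = 0.915) or normexp background correction (0.16, adjusted p = 0.405). The share of all probes well above background was 57.5% to 62.1% on sham arrays and 51.2% to 57.2% on nsPEF arrays, and the Klf15 probe, also below background, read -7.09 to -6.78 in S24 and -6.38 to -5.89 in E24. Where Klf10 probe 2 was measured, at 0 h, it differed by 0.60 ± 0.15 (adjusted p = 0.119), with all nsPEF arrays above all sham arrays, and the difference passed with the replicate number as a block (0.60, adjusted p = 0.048), with spike-in scaling (0.75, adjusted p = 0.016) and without E0 replicate 1 (0.74, adjusted p = 0.0335). Klf10 probe 1 differed by 0.14 ± 0.07 at 0 h (adjusted p = 0.513) and by -0.11 ± 0.07 at 24 h (adjusted p = 0.364). At 24 h its highest nsPEF array (2.421) lay just under the lowest sham array (2.427).

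Among the brightest probes of the genes, the widest difference between treatments was in Klf2 at 24 h, at 0.42 ± 0.17 (adjusted p = 0.148). It came from nsPEF replicates 2 and 4 (1.22 and 0.66), while replicate 1 (0.19) lay within the sham range of 0.05 to 0.27 and replicate 3 (0.27) at its upper end, just above it. It passed when E24 replicate 1 was left out (0.55, adjusted p = 0.0398), and was 0.21 without E24 replicate 2 (adjusted p = 0.444) and 0.17 without replicate 2 of all groups (adjusted p = 0.692). At 4 h Klf2 differed by 0.24 ± 0.17 (adjusted p = 0.425). Klf9 was higher on all nsPEF arrays than on all sham arrays at 4 h, by 0.20 ± 0.07 (adjusted p = 0.128), and differed by -0.12 ± 0.07 at 24 h (adjusted p = 0.342). Klf7 probe 1 was lower on all nsPEF arrays at 4 h, by -0.08 ± 0.05 (adjusted p = 0.365), and at 24 h, by -0.10 ± 0.05 (adjusted p = 0.269). At 4 h its highest nsPEF array (1.557) lay just under the lowest sham array (1.559). Klf7 probe 2 differed the other way at both times, by 0.04 ± 0.14 and 0.07 ± 0.14 (adjusted p = 0.9 and 0.816), and its arrays overlapped. Klf3 probe 2 was lower on all nsPEF arrays at 0 h, by -0.32 ± 0.08 (adjusted p = 0.133), with -0.13 ± 0.06 in probe 1 (adjusted p = 0.482). Klf5, Klf6 and Klf13 differed by less than 0.13 in size at each time (adjusted p from 0.196 to 0.99).

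**Figure D4:**
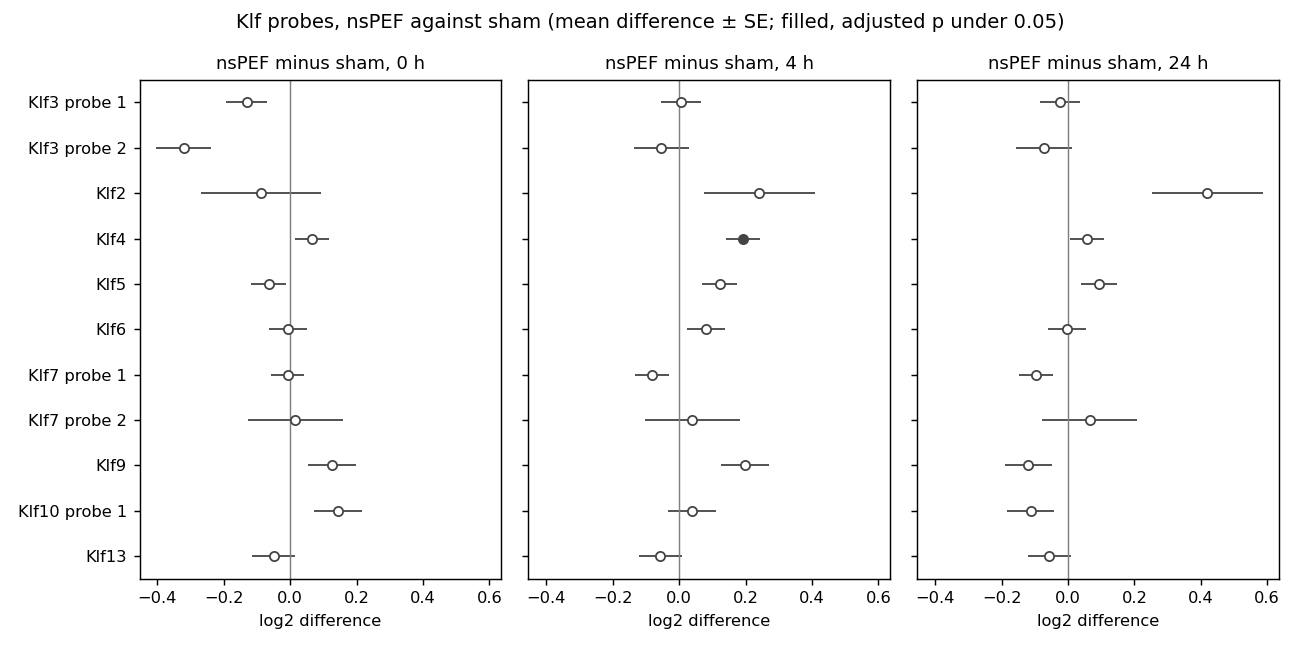
Difference between nsPEF and sham for 11 of the tested Klf probes at each time, as the fitted log2 difference with its SE. Filled points have an adjusted p under 0.05. Klf4 at 4 h (0.19) is the 1 filled point, and Klf2 at 24 h (0.42) has the largest difference shown and an SE of 0.17. Klf10 probe 2 is left out because it was not well above background after 0 h.

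The genes around the Klf factors were read from lists, with the brightest probe of each gene, and their counts at 4 h in sham stand beside the 29.4% higher and 29.7% lower of all tested probes. Unlike the Klf probes, they were not refitted under the alternatives or with arrays left out. How far their calls hold is therefore not known. Of the 7 other Klf genes 5 were tested, and from 0 h to 4 h in sham 2 were higher and 1 lower (median difference of the 5, 0.56). Klf16, a GC-box-binding relative, was higher by 1.14 ± 0.06 (adjusted p = 3.84e-12), and Klf11, which like Klf10 binds Sin3, was well above background on all arrays at 0 h and on none at 4 h, at least 4.94-fold lower. Klf12, a CtBP-binding relative, was well above background on the 4 arrays of S4 and on none of S0, at least 1.55-fold higher. It passed the filter only through S4, so a rise from S0 was favoured in advance. Of the 9 Sp genes 6 were tested, of which 2 were higher and 2 lower at 4 h in sham (median 0.01). Sp7, the bone factor also called osterix, differed by -0.80 ± 0.13, Sp4 by -0.58 ± 0.13 and Sp2 by 0.41 ± 0.08 (adjusted p = 1.7e-05, 0.000658 and 0.000269). None of the other Klf and Sp genes tested passed for nsPEF against sham at any time, and none passed for 24 h against 0 h in sham.

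Of the 9 cofactor genes all were tested, and 2 were higher and 3 lower at 4 h in sham (median -0.07). Ctbp2, the partner of Klf3, was higher by 0.50 ± 0.05 (adjusted p = 9.85e-09), Sin3a, the partner of Klf9, Klf10 and Klf13, was lower by -0.91 ± 0.06 (adjusted p = 3.6e-11), and Kat2b, an acetyltransferase, by -1.28 ± 0.12 (adjusted p = 1.32e-08). Ctbp2 was lower in nsPEF over all times, by -0.09 ± 0.03 (adjusted p = 0.0426). The MEK5-ERK5-MEF2 pathway is the known route to Klf2 and Klf4 in endothelium. Of its 7 genes 6 were tested, with Mef2c below the background limit on all arrays, and 2 were higher and 3 lower at 4 h in sham (median -0.07). Map3k2, a kinase at the head of the pathway, was higher by 0.91 ± 0.08 (adjusted p = 3.53e-09), Mef2a, which binds the MEF2 site, by 0.61 ± 0.07 (adjusted p = 6.86e-08), and Map2k5, which is MEK5, was lower by -0.58 ± 0.06 (adjusted p = 9.68e-08). Between nsPEF and sham, Map3k3, a second upstream kinase, differed at 4 h, by -0.35 ± 0.09 (adjusted p = 0.0409), and Mapk7, which is ERK5, in the mean over all times, by -0.09 ± 0.02 (adjusted p = 0.0192). Spike-in scaling shifted the median of all tested probes by 0.19 at 4 h and 0.09 over all times. Ctbp2, Map3k3 and Mapk7 were not refitted with it. Of 4 ubiquitin ligases with Klf substrates, 2 were higher and 1 lower at 4 h in sham (median 0.32): Fbxw7 by 0.96 ± 0.07 and Siah1a by 0.60 ± 0.08 were higher, and Fbxo32 was lower by -2.49 ± 0.18 (adjusted p = 2.18e-10, 1.23e-06 and 1.96e-10).

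Of 16 genes reported elsewhere as targets of the members, 15 were tested, and 8 were higher and 4 lower at 4 h in sham (median 0.53). Lgals3, which encodes galectin-3 and is a target of Klf3, was higher by 2.48 ± 0.07 (adjusted p = 2.75e-16). Thbd, which encodes thrombomodulin and is a target of Klf2 and Klf4, was higher by 2.01 ± 0.07 (adjusted p = 9.49e-16). S1pr1, a target of Klf2, was well above background on 2 of 4 arrays of S0 and on none of S4, at least 2.27-fold lower. It passed the filter only through S0, so a fall from S0 was favoured in advance. By 24 h Thbd differed from 0 h by -0.17 ± 0.07 (adjusted p = 0.047) and Lgals3 by 0.87 ± 0.07. Against sham, Thbd, Nos3, the endothelial nitric oxide synthase, and Tgfbr1, a TGF-beta receptor, were lower in nsPEF at 24 h, by -0.26 ± 0.07, -0.23 ± 0.07 and -0.32 ± 0.09 (adjusted p = 0.0296, 0.0436 and 0.0479). Cdkn1b, the cell cycle inhibitor p27, was lower in nsPEF at 4 h by -0.23 ± 0.06 (adjusted p = 0.0295) and over all times by -0.15 ± 0.03 (adjusted p = 0.0128). With spike-in scaling the median of all tested probes shifted by 0.19 at 4 h, -0.07 at 24 h and 0.09 over all times. These targets were not refitted with it. The other 11 tested targets did not pass at any time for nsPEF against sham.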

How the data were processed

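Total RNA of TM3 cells was labelled with Cy3 by the authors and hybridized to one-colour Agilent SurePrint G3 Mouse v2 arrays, which were read with Agilent Feature Extraction 12.0. Per the file headers, the deposited scanner output gives each spot a processed intensity, from which the software had subtracted background and trend, a median intensity and a local background intensity, all unscaled between arrays. The deposited series table holds log2 values, for which the authors used GeneSpring with 75th-percentile scaling and a median baseline per probe. It served as an alternative.

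Of the 62976 spots of an array, 3671 were controls, and 0 of the others were saturated. Unmarked spots of a probe were averaged, and log2 values minus the 75th percentile of the array were used. The percentile lay at intensities of 202 to 533. RefSeq transcripts gave a symbol to 34566 of 56605 probes. In R 4.3.3 with limma 3.58.1, 1 mean per group was fitted to all 24 arrays, and p-values were adjusted by Benjamini-Hochberg over all 37687 tested probes (threshold 0.05). The methods of the study name a two-way analysis of variance, which was an alternative. The labels give replicate numbers only, the methods of the study call the replicates biological, and p-values measure the spread between these samples. The number of arrays limits the precision.

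All probes of the members were followed, the brightest standing for the gene. Of each list, the up to 3 genes with the largest called sham difference between 0 h and 4 h are named, with any called for nsPEF against sham. For each member the 2 most correlated genes are named. Members and lists were chosen with earlier results of these data known. The lower bounds used the lowest signal well above background on each array. Scripts were tested on simulated data and used Python 3.11.15 with pandas 2.3.3. Promoters came from RefSeq (GRCm38.p6), and the array coordinates were not used. Alternatives were other normalisations (quantile, spike-in, the percentile over probes well above background on all arrays), normexp background correction (offset 50), other filters, marked spots kept, the mean of a gene's probes, centring by row, a replicate block and leaving out each array or replicate number. The columns of the series table left without a sample numbered 0.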

Additional observations from a re-analysis of the deposited data

Results flagged for a closer look

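In 53 groups of 4 arrays of the 9 tested genes, 5 had 1 array far from the other 3 by Dixon's ratio at its 95% critical value, where chance alone gives about 1 in 20. They were Klf3 probe 1 in S24 replicate 4, the lowest at 3.88, and in E24 replicate 3, the lowest at 3.87. Klf2 in S4 replicate 4 was the highest at 1.87. Klf7 probe 1 in E0 replicate 4 was the highest at 1.92, and Klf13 in S0 replicate 3 was the highest at 1.37. The causes were not tested.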

How the results depend on the processing

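Of the single differences of the Klf probes, 1101 kept direction and call under the alternatives, and 62 lost and 17 gained the call. A further 46 turned sign with no call in either fit, and 16 turned sign with a call in the main or the alternative fit. List and marker genes were not refitted. In fits without 1 array or replicate number 3161 kept both, and 144 lost and 7 gained the call. Of the rest, 48 turned sign with no call in either fit, and 0 turned sign with a call.

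Counts of called Klf probes moved by over 1.5 times as follows. At 0 h for nsPEF against sham (0 called), spike-in scaling and the replicate block gave 1 each. At 4 h (1 called), spike-in scaling gave 5, no filter 2, and marked spots kept, the deposited values and centring by row 0 each. At 24 h (1 called), quantile normalisation and normexp gave 0 and no filter 2. Over all times (2 called), quantile normalisation gave 1 and spike-in scaling, normexp and no filter 4 each. No filter let in the Klf15 probe, below background on all arrays. That probe made the added call at 4 h and at 24 h and is also counted over all times. For the interaction (0 called) spike-in scaling gave 1. From 0 h to 4 h in sham (11 called), spike-in scaling, normexp, marked spots kept and the deposited values gave 7 each, and from 0 h to 24 h in nsPEF (12 called) spike-in scaling gave 7. Without 1 array or replicate number the counts ran from 0 to 1 at 0 h, 0 to 1 at 4 h, 0 to 2 at 24 h, 0 to 3 over all times, 0 to 1 for the interaction, 7 to 11 from 0 h to 4 h in sham and 9 to 12 from 0 h to 24 h in nsPEF.

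The 16 differences that turned sign with a call were as follows. The mean of the 2 Klf10 probes turned the 24 h difference between nsPEF and sham to 0.35 (adjusted p = 0.0213), and 1 of those probes was below background there. With the percentile over probes well above background on all arrays, Klf7 probe 1 turned to 0.028 from 4 h to 24 h in sham. Spike-in scaling turned the other 14, for sham from 4 h to 24 h in Klf3 probe 2 (0.049), Klf7 probe 1 (0.51), Klf7 probe 2 (0.20) and Klf9 (0.57), for sham from 0 h to 24 h in Klf3 probe 1 (0.37), Klf7 probe 1 (0.41), Klf7 probe 2 (0.28), Klf9 (0.055) and Klf13 (0.37), for nsPEF from 4 h to 24 h in Klf7 probe 1 (0.24), and for nsPEF from 0 h to 24 h in Klf3 probe 1 (0.26), Klf7 probe 1 (0.10), Klf7 probe 2 (0.11) and Klf13 (0.14). This scaling shifted the median of all tested probes by 0.65 and 0.70 in sham and by 0.40 and 0.48 in nsPEF for these steps, and since it moves all probes of an array alike, differences between probes stay as they were. The cause of the shift was not tested.

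Whether the replicate numbers pair sham and nsPEF arrays is not settled. The labels do not tie a number to a cell suspension, while the study describes its assays of a replicate as run on a shared one. Over 12 same-numbered pairs deviations from group means had r from -0.040 to 0.093, and 7 of 12 sham arrays correlated best with their own number. With the replicate number as a block, 9 Klf probes were called from 0 h to 4 h in sham (Klf3 probe 2 and Klf10 probe 1 were lost), and Klf10 probe 2 passed at 0 h. Signal over background limits Klf15 and, after 0 h, Klf10 probe 2.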
